A study of Mus musculus with 2 samples.

Results

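The 9 genes described here encode 4 receptors of the tumour necrosis factor (TNF) receptor superfamily that B cells use, Cd40, Tnfrsf13b, Tnfrsf13c and Tnfrsf17, and 5 of the TRAF adaptors that carry receptor signals into the cell, Traf1, Traf2, Traf3, Traf5 and Traf6. They were set beside all 21319 protein-coding genes that had a known start. Peaks came from ChIP-seq of ELF1, a transcription factor of the ETS family, from CH12.LX, an immortalized B-cell lymphoma line of a female mouse of the strain B10.H-2aH-4bp/Wts. There was 1 group of 2 biological replicates, each labelled as a separate biological sample of the same line, with no treatment and no second condition. All samples are 1 tumour line, so the values describe that line and not normal B cells. A peak was assigned to a gene when its summit, the base of highest signal, lay inside the gene or within 50 kb of one of its starts. It was called a promoter peak within 1 kb of a start. It was called a distal peak when it lay over 2 kb from every RefSeq start of all genes of known strand. By this rule 55 of the 29086 peaks of the optimal mm10 list, 39 of the 18804 peaks of the mm9 list, 342 of the 300000 relaxed entries of replicate 1 and 363 of the 300000 of replicate 2 belonged to the 9 genes.

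Receptors of this family have no enzyme activity of their own. When a ligand gathers them in the membrane, TRAF proteins bind their tails and, with partner enzymes, build ubiquitin chains. In this way they control the canonical and the alternative NF-kB pathways. These pathways keep B cells alive and let them divide, switch antibody class and become plasma cells. ELF1, like other ETS factors, binds DNA around a GGAA core, and ChIP-seq shows where it sat on chromatin, not how strongly a gene was transcribed.

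ELF1 peaks lay at the promoters of 7 of the 9 genes, against 42.7% of all protein-coding genes. The 7 were Cd40, Tnfrsf13b, Tnfrsf13c, Traf2, Traf3, Traf5 and Traf6, and the 2 without a promoter peak were Tnfrsf17 and Traf1. Every one of the 9 had at least 1 assigned peak, against 72.7% of all genes, and 8 of the 9, all but Traf6, had a distal peak, against 49.5% of all genes. In the conservative list 6 of the 9 had a promoter peak, all but Traf5 of the 7, against 42.0% of all genes, and on mm9 the same 7 had one, against 36.8% of all genes by GENCODE starts. The 9 genes were listed with results of these data known, and a list this short was not tested. Of the 55 peaks, 10 lay at a member's own promoter, 11 within 1 kb of another gene's start, 31 were distal and 3 fell between these classes. Peaks that lie at another gene's start are assigned here by distance alone.

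The stretches of DNA under the peaks that the account turns on are printed 5′ to 3′ on the strand of the gene. Capitals mark every GGAA core, or TTCC where the core is on the other strand. The mm9 sequences of 101 bases are centred on the summit, with the NCBIM37 assembly as their source. The mm10 sequences are from RefSeq promoters of GRCm38.p6. Windows largely inside a first exon were cut to 30 bases, placed so as to show a GGAA core. That of the Cd40 start begins upstream of the gene's first start and ends short of the summit. The set covers the strongest promoter peak of each gene that had one, the second promoter peaks of Cd40 and Traf3, and the strongest assigned peaks of Traf1 and Tnfrsf17.
Traf6 start (mm10, chr2:101678360-101678444, plus strand): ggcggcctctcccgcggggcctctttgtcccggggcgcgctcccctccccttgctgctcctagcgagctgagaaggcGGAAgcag
Traf2 promoter (mm9, chr2:25402487-25402587, minus strand): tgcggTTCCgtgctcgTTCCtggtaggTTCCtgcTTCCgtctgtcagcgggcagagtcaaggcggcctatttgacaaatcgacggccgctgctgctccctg
Traf3 promoter (mm9, chr12:112404304-112404404, plus strand): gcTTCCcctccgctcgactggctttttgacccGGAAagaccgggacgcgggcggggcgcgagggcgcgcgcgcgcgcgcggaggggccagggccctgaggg
Traf3 start (mm10, chr12:111166364-111166393, plus strand): atTTCCagcgcgcgagaGGAAgtgccagcg
Traf5 promoter (mm9, chr1:193916592-193916692, minus strand): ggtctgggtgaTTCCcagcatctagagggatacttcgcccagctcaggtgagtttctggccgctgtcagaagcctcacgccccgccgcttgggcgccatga
Tnfrsf13b promoter (mm10, chr11:61126691-61126720, plus strand): aaggGGAAaacccaGGAAgtgtggcctagg
Tnfrsf13c first kilobase (mm9, chr15:82053799-82053899, minus strand): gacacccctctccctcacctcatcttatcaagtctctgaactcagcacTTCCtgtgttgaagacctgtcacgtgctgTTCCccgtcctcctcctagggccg
Cd40 first kilobase (mm9, chr2:164882082-164882182, plus strand): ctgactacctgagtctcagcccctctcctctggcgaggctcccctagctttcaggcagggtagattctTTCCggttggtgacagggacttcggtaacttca
Cd40 start (mm9, chr2:164881105-164881134, plus strand): agaccccgccctcTTCCtgggcgggactcc
Traf1 upstream peak (mm9, chr2:34832133-34832233, minus strand): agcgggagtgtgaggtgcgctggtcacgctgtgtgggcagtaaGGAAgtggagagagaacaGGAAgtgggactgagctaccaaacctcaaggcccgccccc
Snx29 start beside Tnfrsf17 (mm9, chr16:11322872-11322972, plus strand): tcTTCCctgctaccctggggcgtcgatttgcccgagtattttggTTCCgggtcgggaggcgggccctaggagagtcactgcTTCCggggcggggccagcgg
The Traf2 promoter shows 4 cores in 1 cluster upstream of the summit, while the Traf6 stretch shows 1, just inside the gene. The Traf1 upstream peak, the Tnfrsf13b promoter, the Traf3 start and, on the other strand, the Tnfrsf13c stretch hold GGAA followed by GT. The account returns to this form.

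**Figure D1:**
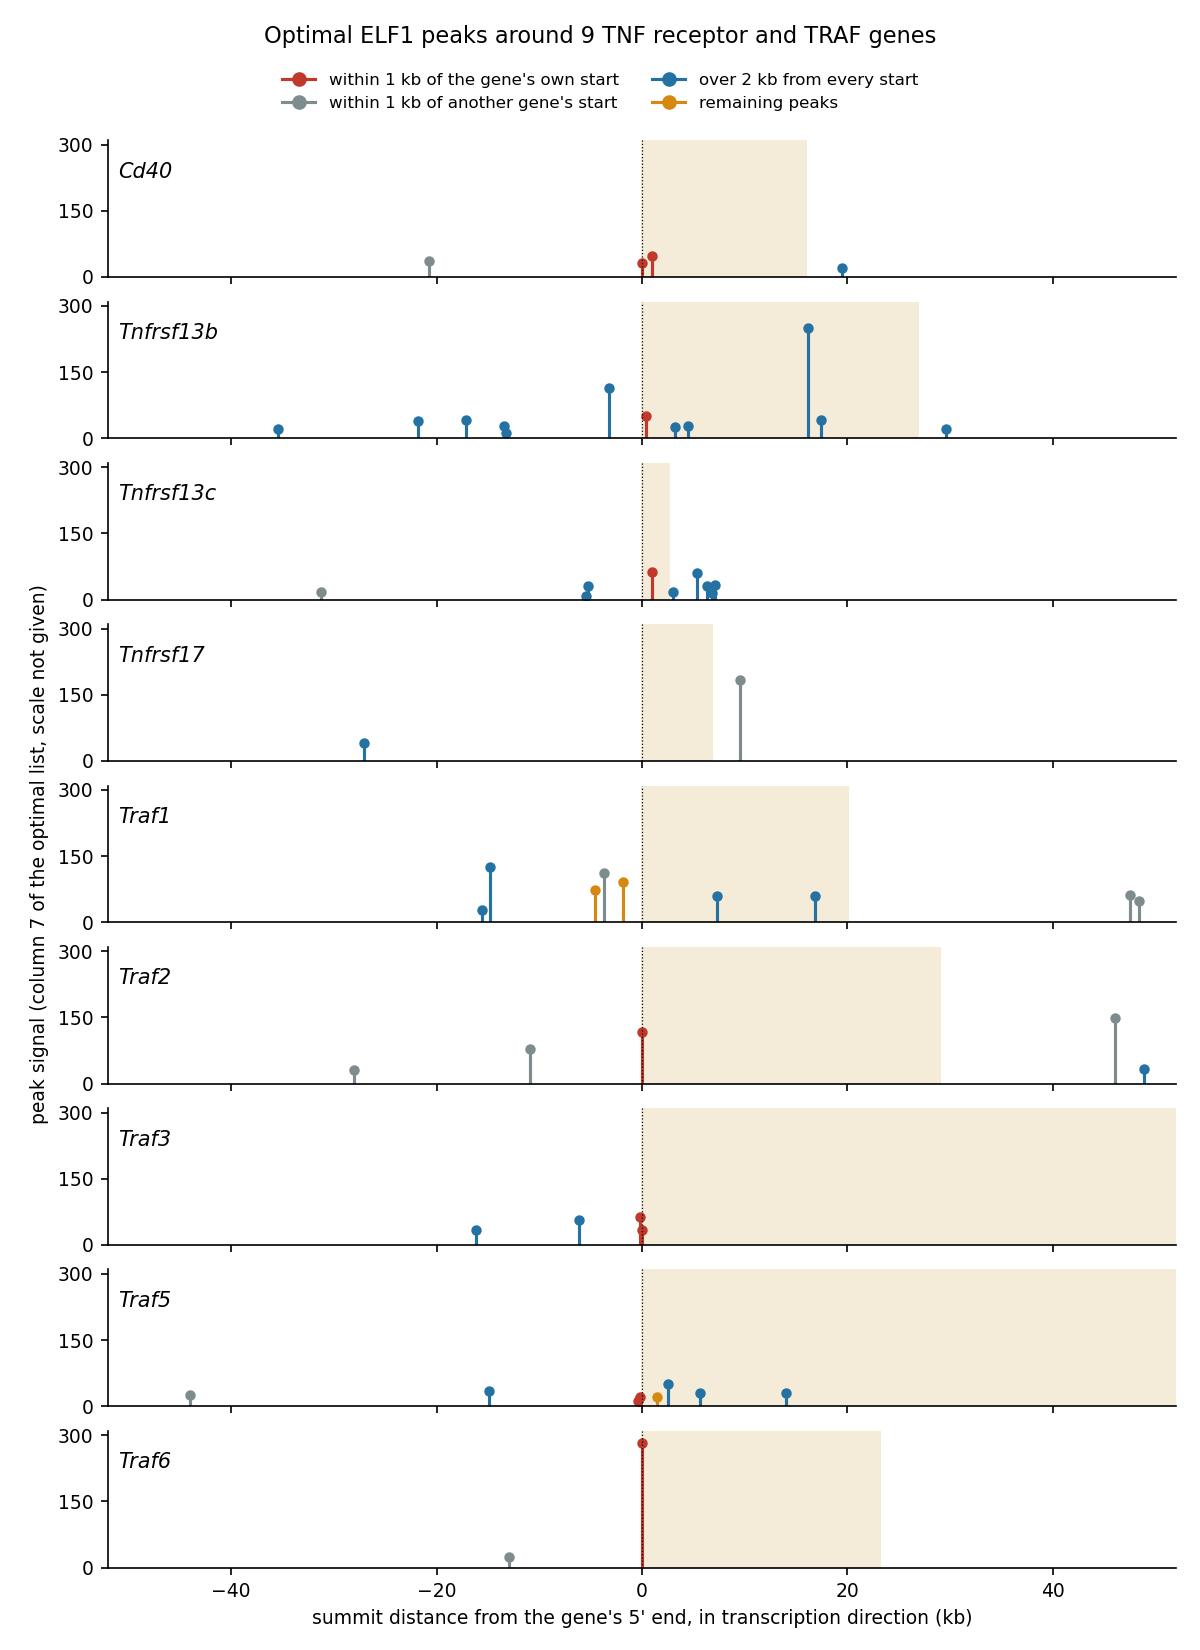
Optimal ELF1 peaks around each of the 9 genes. The horizontal axis is the summit's distance in kb from the gene's 5′ end in the direction of transcription, the height of each stem is the peak signal in the caller's own scale, the shaded band is the gene body (cut at the edge of the plot for Traf3 and Traf5), and colours give the class of the peak. Traf6 carries 1 tall peak at its start with signal 282, Tnfrsf13b 12 peaks with the tallest inside the gene at signal 249, and Tnfrsf17 no peak at its start.

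Among the receptors, Cd40 encodes the receptor through which helper T cells license B cells for class switching and germinal centre entry. The gene lay on mm10 at chr2:165055614-165071654 on the plus strand and had 4 optimal peaks. The strongest had its summit 992 bp downstream of the start, just within the 1 kb limit, with signal 48.4 in the list of both replicates, 22.9 in replicate 1 and 29.3 in replicate 2. On mm9 the matching summit lay in an intron. A second promoter summit lay 28 bp downstream of the start with signal 30.6. Replicate 1 had no relaxed entry within 100 bp of it and replicate 2 had one of 30.4, and the conservative list did not hold it. A peak of signal 36.5 lay 20715 bp upstream, at the start of Ncoa5, a nuclear receptor coactivator gene, and a weak distal peak of 20.9 lay 19509 bp downstream of the start. Cd40 thus had promoter peaks of modest signal: 74.1% of all genes with a promoter peak had one at least as strong.

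Tnfrsf13b encodes TACI, which binds the survival factors BAFF and APRIL. At chr11:61126283-61153170 on the plus strand it had 12 assigned peaks, the most of the 9 genes, and 3.44% of all protein-coding genes had at least as many. Of the 12, 9 were found in both replicates and 9 had a summit within 100 bp in the conservative list. The strongest lay inside the gene, away from its RefSeq starts, with signal 249 and rank 1669 of 29086. It counts as distal by these starts, whereas on mm9, with signal 400, it counts as a promoter peak by a GENCODE M1 start of a noncoding transcript. Its signal was 125 in replicate 1 and 125 in replicate 2, so the replicates gave the same value to 3 digits. Its rank was 1346 in replicate 1 and lower, 2035, in replicate 2. The peak at the promoter itself, 38 bp upstream of the RefSeq start at 61126755, was weaker, with signal 50.2, against 24.2 in replicate 1 and 24.4 in replicate 2. A peak 3246 bp upstream of the first start had signal 113, with 54.2 in replicate 1 and 54.5 in replicate 2. The remaining 9 peaks had signals of 11.2 to 41.6 and spread from 35446 bp upstream to 29137 bp downstream of a start. The one 4055 bp downstream, of signal 27.2, counts as distal by RefSeq, but on mm9 it lay within 1 kb of the Gm12269 start.

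Tnfrsf13c encodes the BAFF receptor, on which mature B cells depend for survival. This short gene, at chr15:82221742-82224380 on the minus strand, had 9 assigned peaks, and 8.42% of all genes had at least as many. Of the 9, 6 were found in both replicates and 7 had a summit within 100 bp in the conservative list. The promoter peak lay 980 bp downstream of the start, in an intron by the mm9 annotation, with signal 63.5, 29.2 in replicate 1 and 34.9 in replicate 2. It lies close to the 1 kb limit and would not count within 500 bp. Beyond the 3′ end stood a group of 5 peaks, 3057 to 7061 bp from the start. The strongest of them, 5362 bp downstream, had signal 59.8, 21.5 in replicate 1 and 38.1 in replicate 2. A further pair of summits lay 5262 and 5461 bp upstream, with signals of 31.0 and 8.88, and the weaker of these had no relaxed entry within 100 bp in either replicate. The last peak, of signal 18.2, lay 31227 bp upstream at the start of 1500009C09Rik, a long noncoding RNA gene.

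Tnfrsf17 encodes BCMA, a receptor for APRIL and BAFF that is best known from long-lived plasma cells. The gene, at chr16:11313232-11320074 on the plus strand, had no optimal peak within 1 kb of a start or inside its body. Within 1 kb of its starts replicate 1 had 1 relaxed entry, of signal 5.28 and rank 89426 of 300000, and replicate 2 had none. Its 2 assigned peaks were both away from it. The stronger, with signal 183 and rank 2692, was found in replicate 1 at 67.5 and in replicate 2 at 116, and lay 9014 bp downstream of the nearer start at the start of Snx29, a sorting nexin gene. The other, 27119 bp upstream, had signal 40.9, with 14.1 in replicate 1 and 22.5 in replicate 2. Tnfrsf17 was the receptor with the fewest assigned peaks, and 59.0% of all genes had at least as many.

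Among the adaptors, Traf1 encodes the TRAF protein that lacks the RING domain of its relatives and pairs with TRAF2. It lay at chr2:34941750-34961812 on the minus strand and had 9 assigned peaks but none within 1 kb of a RefSeq start. The nearest summit, 1859 bp upstream, had signal 92.3, with 50.2 in replicate 1 and 41.5 in replicate 2, so Traf1 lay beyond the 1 kb limit that Cd40 and Tnfrsf13c just met. The only summit of the 9 genes between these was one of Traf5, 1434 bp downstream of its start. In the relaxed lists the best entries within 1 kb were 8.39 in replicate 1, rank 36209, and 8.96 in replicate 2, rank 47652. Of the genes without an optimal promoter peak, 22.6% had such an entry in both replicates.

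Traf1 instead had a row of peaks upstream. The strongest, 14846 bp upstream, had signal 125, with 51.4 in replicate 1 and 73.5 in replicate 2. A peak 3667 bp upstream had signal 112, with 46.9 in replicate 1 and 65.1 in replicate 2, within 1 kb of Gm13450, which is annotated as a pseudogene. Another lay 4600 bp upstream at signal 73.8. Inside the gene, 7246 and 16820 bp downstream of the start, were peaks of 58.5 and 59.1, and 2 more lay at the start of Phf19, a Polycomb-associated gene, 47487 and 48359 bp downstream. All but 1 of the 9 peaks were found in both replicates, and all 9 had a summit within 100 bp in the conservative list.

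Traf2 encodes a RING-containing adaptor that brings the cIAP ubiquitin ligases to receptors. At chr2:25517982-25546940 on the minus strand, it had its promoter summit 45 bp upstream of the start with signal 118 and rank 4700. Replicate 1 gave 41.1 and replicate 2 gave 79.8, a ratio of replicate 2 to replicate 1 of 1.94. Of all genes with a promoter peak, 43.2% had one at least as strong, which placed Traf2 above the middle of bound genes. Of its other 4 peaks, 3 lay at starts of neighbours. The strongest of all, with signal 149, stood 46106 bp downstream at the closely spaced starts of Fbxw5 and C8g, and those of 78.2 and 30.9 stood at Edf1 and Phpt1. On mm9 a further peak of signal 54.2 lay 2640 bp upstream of Traf2 and had no counterpart in the optimal list.

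Traf3 encodes the adaptor that, with TRAF2 and the cIAPs, keeps the kinase NIK low and so restrains the alternative NF-kB pathway. It spanned chr12:111166321-111267155 on the plus strand and had 4 peaks, all at or upstream of its starts. The first promoter summit, 178 bp upstream, had signal 63.6, with 34.7 in replicate 1 and 28.2 in replicate 2. The second, 2 bp upstream of the RefSeq start at 111166370, had signal 34.1, with 17.2 in replicate 1 and 7.75 in replicate 2. Its ratio of replicate 2 to replicate 1, 0.452, was the lowest of the member peaks, and the conservative list did not hold it. Peaks 6157 and 16210 bp upstream had signals of 55.8 and 34.2. No peak was found in the rest of the gene body.

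Traf5 encodes an adaptor that binds CD40 and several other receptors of the family. It lay at chr1:191997203-192092599 on the minus strand. Its promoter peaks were the weakest of the 7 genes that had one, with 21.4 at 177 bp upstream and 11.7 at 416 bp upstream. The first was absent from replicate 1 within 100 bp and had 17.4 in replicate 2, and the second had 7.57 in replicate 1 and 3.93 in replicate 2. Neither was in the conservative list, and 96.6% of all bound genes had a promoter peak at least as strong, so Traf5 stood at the weak end of bound promoters. Its strongest peak lay 2547 bp inside the gene, in an intron by the mm9 annotation, with signal 49.7, 23.7 in replicate 1 and 26.7 in replicate 2. The other 5 of its 8 peaks had signals of 20.7 to 33.6.

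Traf6 encodes the ubiquitin ligase that serves CD40 as well as Toll-like and interleukin-1 receptors. It had the strongest promoter peak of the 9 genes. At chr2:101678420-101701668 on the plus strand, the summit lay 7 bp downstream of the start, with signal 282 and rank 1291 of 29086. Replicate 1 gave 129 at rank 1279 and replicate 2 gave 153 at rank 1344, so the site stood at nearly the same place in both lists. Of all bound genes, 14.1% had a promoter peak at least as strong. The only other peak assigned to Traf6 was weak. It lay 12963 bp upstream at the start of the noncoding RNA gene Gm34041, with signal 24.2, and had 3.25 in replicate 1, near the end of that list at rank 270604, and 18.8 in replicate 2.

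**Figure D2:**
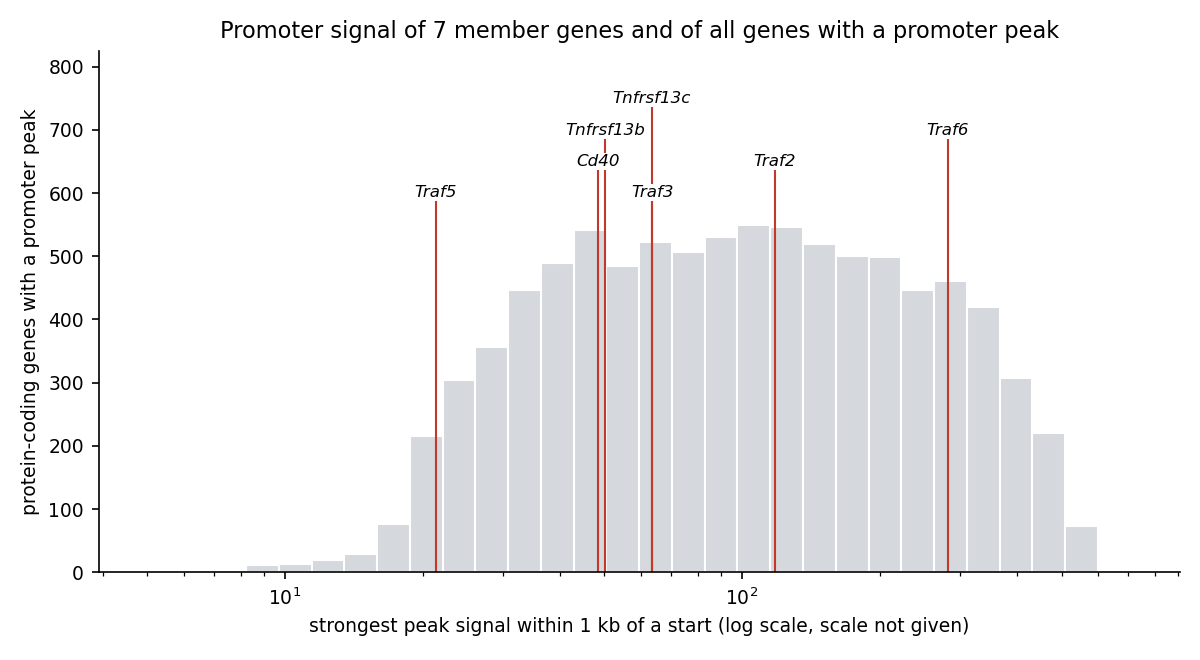
Strongest promoter signal of the 7 genes with a promoter peak (red lines) and of all protein-coding genes with one (grey bars, number of genes). The horizontal axis is the peak signal in the optimal list on a log scale, in the caller's own scale. Traf6 at 282 and Traf2 at 118 lie above the median of all bound genes, 97.6, and the other 5, from Traf5 at 21.4 to Traf3 at 63.6, lie below it, with Traf3 and Tnfrsf13c on nearly the same line.

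Set in order, the strongest promoter signals were 282 at Traf6, 118 at Traf2, 63.6 at Traf3, 63.5 at Tnfrsf13c, 50.2 at Tnfrsf13b, 48.4 at Cd40 and 21.4 at Traf5. Their median was 63.5, against 97.6 for all bound genes. Neighbours in this order cannot all be told apart: in replicate 1 Traf3 was above Tnfrsf13c and in replicate 2 below it, and the same reversal was seen between Tnfrsf13b and Cd40. Traf6 and Traf2 kept the first 2 places in both replicates. The order holds for RefSeq starts: on mm9 with GENCODE M1 starts the strongest promoter signals were 469 at Traf6, 400 at Tnfrsf13b, 177 at Traf2, 84.8 at Tnfrsf13c, 81.1 at Traf3, 56.4 at Cd40 and 36.3 at Traf5, so Tnfrsf13b came directly after Traf6.

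Most peaks of the 9 genes were found in both replicates. Of the 55, 43 (78.2%) had a relaxed entry within 100 bp in both replicates, against 85.4% of all optimal peaks. Replicate 1 lacked 11 of them and replicate 2 lacked 2, and 1 of these was lacking in both. How many of all optimal peaks each replicate lacked was not counted, so this split is not shown to be particular to the members. All 26 member peaks in the stronger 14543 of the list were found in both replicates, against 97.5% of all peaks in that part of the list. Of the 29 in the rest 17 (58.6%) were, against 73.4% of all. The median signal of member peaks was 34.2, against 39.7 for all optimal peaks. The conservative list had a summit within 100 bp of 41 of the 55 (74.5%), against 78.3% of all.

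**Figure D3:**
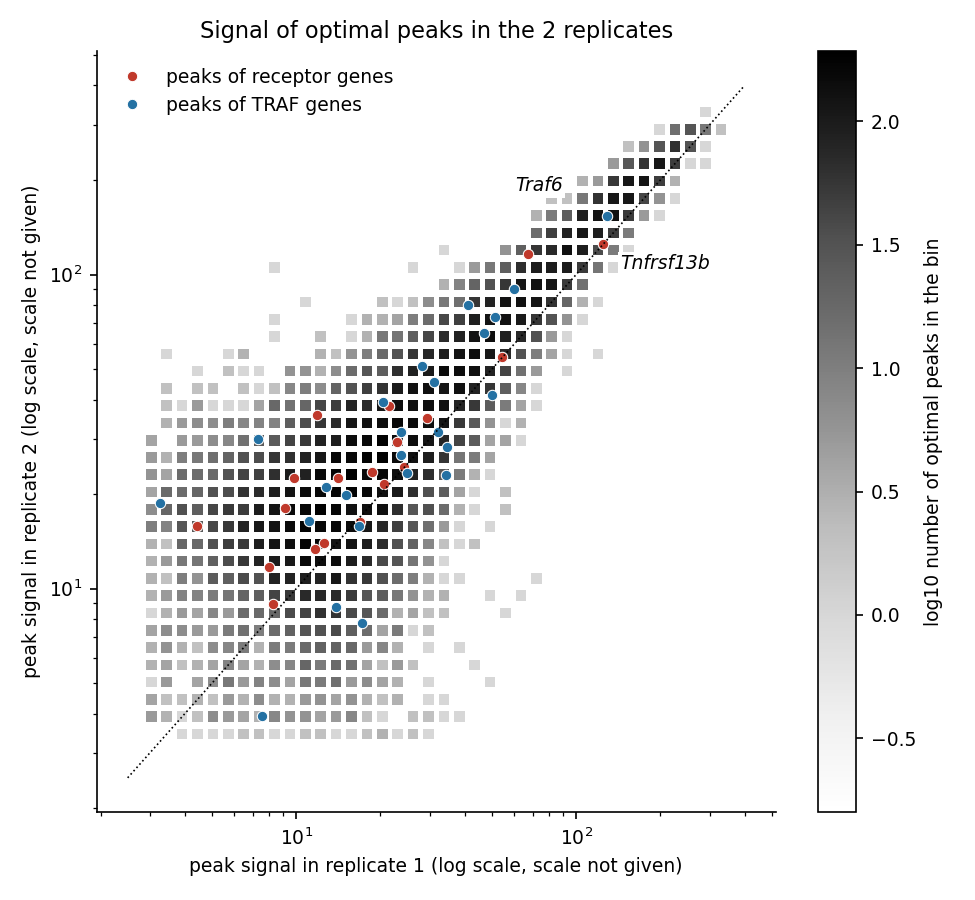
Signal of each optimal peak in replicate 1 (horizontal) and replicate 2 (vertical), both on log scales and in the caller's own scale, for peaks found in both. Red points are peaks of receptor genes and blue points peaks of TRAF genes, 43 in all; grey squares show how many of all optimal peaks fall in a bin, and the dotted line marks equal values. The strongest member peaks, at Traf6 and inside Tnfrsf13b, lie near the line, and the widest departures are among weak peaks.

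Across the 43 peaks found in both, signal in replicate 2 was 1.28 times that in replicate 1 at the median, against 1.33 times over all optimal peaks. The ratio ran from 0.452 at the second Traf3 promoter peak to 5.79 at the upstream peak of Traf6, whereas the 5th and 95th percentiles of all peaks were 0.644 and 3.09. The scale of the signal is not given and may differ between the lists, so the ratio describes the lists and is no measure of a change.

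The GGAA core was present at nearly every member peak. Within 50 bp of the summit 37 of the 39 mm9 peaks (94.9%, exact binomial 95% interval 82.7% to 99.4%) held it, against 92.6% of all mm9 peaks. In equally long windows placed 500 bp away on either side it was found in 51.3% for the members and 65.4% for all peaks. The 2 peaks without it were the one at the Ncoa5 start upstream of Cd40 and one 6275 bp downstream of the Tnfrsf13c start. A word this short is common: 96.0% of all 32851 RefSeq promoters of 300 bases hold it, among them those of Tnfrsf17 and Traf1, which had 3 cores each and no promoter peak. Of the promoter windows of the 8 members that the RefSeq table holds, that of Traf2 had the most cores, 7, and that of Traf5 the fewest, 1.

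Longer words, on either strand, were counted in the same windows. CCGGAAG, the classical high-affinity ETS form, was found at 3 of the 39 member peaks (7.69%), against 18.8% of all mm9 peaks and 0.877% of the windows beside them. None of the 9 mm9 peaks at a member's own start held it, against 26.8% of all peaks at protein-coding starts. The 3 that did were an intronic peak of Tnfrsf13b and the Snx29 and Edf1 starts near Tnfrsf17 and Traf2. AGGAAGT, a word chosen after the sequences had been seen, was found at 8 member peaks (20.5%), against 24.3% of all. It stood at 3 of the 9 peaks at members' own starts, which were the promoter peak of Tnfrsf13c, that of Tnfrsf13b and the strongest Tnfrsf13b peak, distal by RefSeq, and at 5 of the 21 away from protein-coding starts, against 12.2% and 34.8% of all peaks in the same classes. Those 5 were the Tnfrsf13c peak 5334 bp downstream, 3 peaks of Traf1 and the intronic Traf5 peak 2507 bp downstream. The Traf3 start also holds AGGAAGT, 15 bp from its second promoter summit on mm10. That peak had no mm9 counterpart, so it is not in these counts. The counts are small and were not tested.

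Words of other factors known from B cells were counted in the same way. GAGGAAG, the form that PU.1 prefers, was found at 4 member peaks (10.3%), against 13.5% of all. TGTGGT, a RUNX word, was found at 4 (10.3%), against 7.09%, and TGANTCA, an AP-1 word, at 3 (7.69%), against 4.07%. The composite ETS-IRF word was found at 1, the Tnfrsf13c peak 5334 bp downstream, against 2.77% of all peaks. Neither the NF-kB word nor the octamer ATTTGCAT was found at any of the 39, against 1.15% and 1.39% of all. The core or its complement is part of every word here but the RUNX, AP-1 and octamer words, and the PU.1 form can overlap AGGAAGT, so these counts are not separate. In promoters at large, CCGGAAG is held by 8.86%, GAGGAAG by 13.6%, AGGAAGT by 9.35% and TGTGGT by 16.8%. Those windows have 300 bases, against 101 at the peaks, so these shares cannot be set against the peak shares directly. In 101-base windows 500 bp from all mm9 peaks, GAGGAAG was held by 3.75%, AGGAAGT by 2.36%, TGTGGT by 6.56% and TGANTCA by 2.44%. A match is a string of letters and does not show which protein was bound.

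The promoters of the 9 genes also differed in CpG content, which the rule did not use. In the RefSeq window of 300 bases the Traf3 promoter had 59 CpG, a count that 0.1% of all promoter windows reach, Traf2 had 28, Traf6 19 and Traf5 17. The receptor promoters had fewer, with 12 at Tnfrsf13c, 8 at Tnfrsf13b and 6 at Tnfrsf17, and Traf1 had 4. The median over the protein-coding genes in the table was 15, with each gene taken at its window with the most CpG. Of the 8 members with a sequence, 4 lay above this median and all 4 had a promoter peak. Of the 4 at or below it, Tnfrsf13b and Tnfrsf13c had one and Tnfrsf17 and Traf1 did not. Among the 17274 protein-coding genes in the promoter table, 69.2% above that median and 19.9% at or below it had a promoter peak. This split was chosen after values had been seen. Over all promoter windows, each counted once, the median was lower, at 7, and Tnfrsf13b and Tnfrsf13c lay above that one.

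The 9 genes were then set among other genes of their pathway, from lists that leave them out. Promoter peaks were found at 5 of 21 other genes of the TNF receptor superfamily (23.8%), with Tnfrsf12a at signal 55.6, Tnfrsf8, which encodes CD30, at 51.8, Relt at 37.1 and Tnfrsf9, which encodes the costimulatory receptor 4-1BB, at 19.7. Cd27, Eda2r and Edar were among those without one. Of 18 TNF ligand genes, 8 (44.4%) had a promoter peak, while Eda, Fasl and Tnf were among those without one. The strongest were at Tnfsf9 with 107, Lta, which encodes lymphotoxin alpha, with 48.6, Cd70 with 46.7 and Tnfsf14 with 40.9. The Tnfsf9 summit also lay within 1 kb of the Gm11110 start. Receptor and ligand genes thus had promoter peaks at shares below or near the 42.7% of all genes, and with median signals of 37.1 and 36.8 where bound.

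Shares were higher on the intracellular side of the pathway. Of 26 genes for TRAF partners and downstream enzymes, 25 (96.2%) had a promoter peak, all but Usp18, whose product removes the ubiquitin-like protein ISG15. The strongest were at Tradd, an adaptor of TNF receptor 1, with signal 427, and Ripk1, a kinase of the same complex, with 411. Next came Traf7 with 355 and Ube2v1, which works with TRAF6 in building ubiquitin chains, with 313. These summits also lay within 1 kb of other genes' starts, those of Fbxl8, Serpinb6a, Rab26os and Gm31852 in that order. All 9 NF-kB subunit and inhibitor genes had a promoter peak. Signals were highest at the inhibitor gene Nfkbie with 372, Rel with 261, Nfkbib with 258 and Relb with 182. The Nfkbib summit also lay within 1 kb of the Sirt2 start. Median signals of bound genes were 168 and 176 in these lists, and the median CpG counts were 22 and 25, against 14 for the other receptors and 7 for the ligands. Within the 9 genes 3 of 4 receptor genes and 4 of 5 TRAF genes had a promoter peak, and the 2 signals above the median of all bound genes were at Traf6 and Traf2. CpG counts were known for 19 of the 26 partner genes and 7 of the 9 NF-kB genes. Of these, 14 and 6 lay above the median of 15. Counts were known for 19 of the 21 other receptors and 13 of the 18 ligands, of which 6 and 1 lay above it. The part of CpG content in the differences between the lists was not tested.

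**Figure D4:**
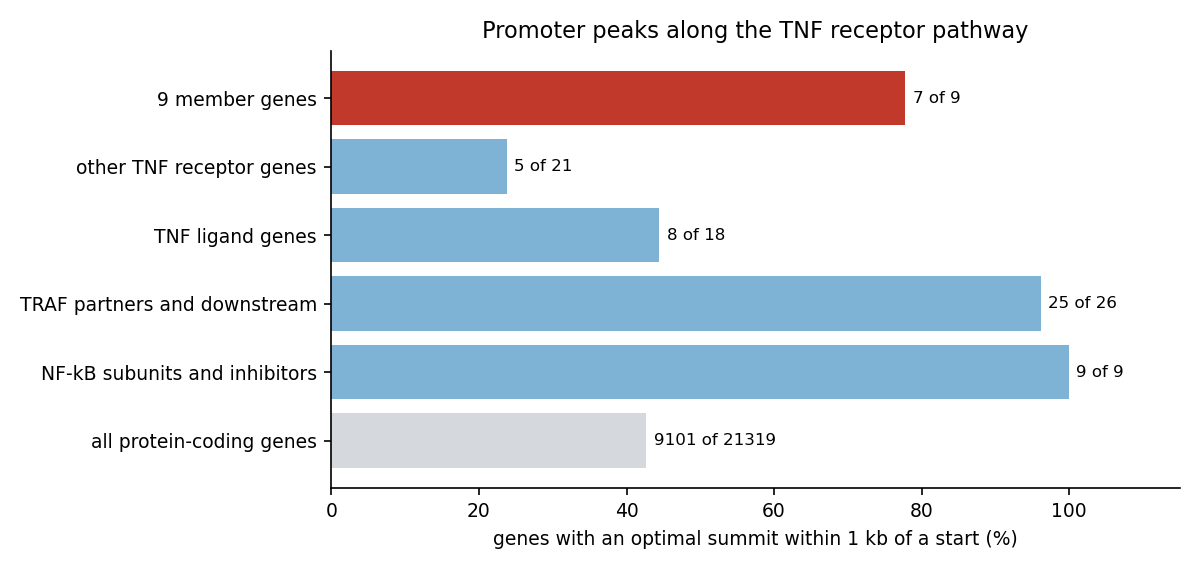
Share of genes with an optimal ELF1 summit within 1 kb of a start, in percent, for the 9 genes described here, for 4 lists of other pathway genes and for all protein-coding genes, with the number of genes beside each bar. The bars stand at 23.8% for other TNF receptor genes, 44.4% for ligands, 96.2% for TRAF partners and downstream genes and 100% for NF-kB genes, beside 42.7% for all genes.

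The label of the line was set beside promoter peaks at marker genes, although a peak does not measure expression. Promoter peaks were found at 9 of 10 B cell marker genes and at 2 of 10 T cell marker genes, Cd5 and Lck. They were found at 3 of 5 plasma cell genes, against 42.7% of all protein-coding genes. Those found in both replicates were 7 at B cell, 2 at T cell and 2 at plasma cell genes. For this measure the share over all protein-coding genes was not counted. Distal peaks were found for 9 B cell, 7 T cell and 4 plasma cell genes, against 49.5% of all genes. Read depth is unknown from these lists, each list holds sites past its caller's limit only, and a gene without a peak is one at which none was listed, not one shown to be unbound.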

How the data were processed

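ELF1 ChIP-seq peak lists of 2 biological replicates of CH12.LX were used as the authors deposited them, in narrowPeak format. Column 7 holds the peak signal as the authors' caller gave it, on a scale not given in the sources used here, and the deposited column 10 gives the summit's offset from column 2. Per the deposited file notes, each replicate's relaxed mm10 list came from that replicate alone, the optimal and conservative lists from the relaxed lists by the irreproducible discovery rate, and the mm9 list from both replicates' mm9 alignments. Nothing read here names the aligner, the caller or the control's handling. Read depth per sample is unknown, so intervals cover counting error only.

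Starts on mm10 came from the RefSeq gene table and RefSeq promoters of GRCm38.p6. Of 21887 protein-coding genes 21319 had a start, with strand from the promoter table for 17274 and from GENCODE M1 by name for 4045. The mm9 list used all GENCODE M1 transcript starts and the NCBIM37 sequence. No coordinates were converted. A member's starts on the 2 builds were tied by an exact match of the promoter sequence, except Cd40, for which the first start of each annotation was taken. An optimal peak counted as found in a replicate with a relaxed summit within 100 bp. Sequence words on either strand were counted within 50 bp of mm9 summits. The members, pathway lists and words were chosen with earlier results of these data known. All 9 members are named, with the 4 strongest promoter peaks of each pathway list and up to 3 genes without one in alphabetical order. No test between samples was possible with 1 group. Alternatives were other windows, other lists and each replicate alone. Summit assignment and word search were tested on simulated data. Python 3.11.15, pandas 2.3.3, pysam 0.24.0 and samtools 1.23.1 were used.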

Additional observations from a re-analysis of the deposited data

How the results depend on the processing

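The count of 7 genes with a promoter peak ranged from 6 to 8: a 500 bp window dropped Tnfrsf13c, a 2 kb window added Traf1, and the conservative list and the stronger 50% of the optimal list each dropped Traf5. It was 7 on the mm9 list, for each replicate alone and with 1 RefSeq 5′ end per gene, an alternative chosen after seeing the data. The 55 assigned peaks became 26 in the stronger 50% of the list, since fewer peaks were entered, and 39 to 70 with other windows and lists. The strongest entries of a single replicate gave 55 without replicate 1 and 58 without replicate 2. The 43 peaks found in both replicates ranged from 33 to 51. The GGAA share fell to 69.2% within 25 bp of the summit, a narrower window, against 75.2% of all mm9 peaks, and was 51.3% in the windows 500 bp away. Of 19 recomputed promoter signals 18 were unchanged and that of Cd40 became 30.6 within 500 bp. No paired analysis was possible because there is 1 group and no comparison between samples.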
